A study of Homo sapiens with 15 samples.

Results

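The genes described here encode the proteins of the cytosolic ribosome. Every gene whose symbol in the platform annotation of both value tables begins with RPL or RPS followed by a digit, or is RPLP0, RPLP1, RPLP2 or RPSA, was taken, except the RPS6K kinases and pseudogenes. Only probe sets named for a single gene were used, and the one with the highest mean represented its gene. This gave 69 of 12149 genes, of which 62 are core proteins (23 of the small subunit and 39 of the large subunit) and 7 are paralogs or variant copies. RPL21, RPL26, RPL34, RPL36A, RPS26 and RPS3 had no probe set named for them alone, and RPSA, RPLP0 and RPS27A are not analysed here. RPS4Y1, a Y-linked copy, is counted and no value of it is given.

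The data are Affymetrix U133A-type microarray measurements of total RNA from the HMT3522 series, a set of related human breast epithelial cell lines that were grown in 3D laminin-rich extracellular matrix (lrECM). S1 is the nonmalignant line (3 samples) and T4 its malignant counterpart (3 samples). T4R denotes the 9 samples of T4 cells labelled as reverted, with 1 sample for each agent: GM6001, a broad metalloproteinase inhibitor; a treatment labelled only "MMPs and ADAMs", called the MMP and ADAM inhibitor here; TNF protease inhibitor–2; PD98059, an inhibitor of MEK; LY294002, an inhibitor of PI3K; dominant-negative Rap1; Tyrphostin AG 1478, an inhibitor of the EGFR kinase; mAb225, an antibody to EGFR; and AIIB2, an antibody to beta1 integrin. All 15 samples come from a single cell series in culture. The sources name no dose or time, and they mention a vehicle control but not which samples received it. They also do not say whether repeat samples are independent cultures, so a p-value here reflects the spread among the samples at hand, part of which may be technical.

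Ribosomal proteins assemble with ribosomal RNA into a small subunit (RPS genes), which reads the mRNA, and a large subunit (RPL genes), which joins the amino acids. Growing cells need them in equal numbers, and their mRNAs are among the most abundant in the cell. Most of these mRNAs begin with a C followed by an unbroken run of pyrimidines, the 5′ terminal oligopyrimidine (TOP) motif, through which mTOR signalling and the binding protein LARP1 govern their translation and stability. RNA polymerase I makes the ribosomal RNA, and assembly factors join both in the nucleolus. Several members have roles outside the ribosome: RPL5 and RPL11 bind MDM2 and so stabilise p53, and RPS6 is the substrate of the S6 kinases.

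The start sites of 57 members were found by symbol in RefSeq promoter sequences of build GRCh38.p14. A run of at least 7 C or T letters on the gene's strand, lying within 3 bases of the annotated start, was found in 43 of these 57 (75.4%), against 4413 of 27305 genes in the whole table (16.2%). The longest such run had a median of 11 bases in the members and of 3 bases in all genes. The sequences below are shown because the results turn on these genes or on a paralog beside its parent gene. RPS6 and RPS16 were lower in T4, and RPS12, RPL22 and RPL36AL had the largest values in the interaction that involves S1 sample 3. RPS27 and RPL39 are the parent genes of RPS27L and RPL39L. RPS27L, RPL26L1 and RPL4 show no such run within 3 bases of the annotated start. The RPL4 window holds a stretch of C and T that begins after the start and past that limit, so the rule does not count it. Each sequence has 40 bases before the start and 20 from it, 5′ to 3′ on the gene's strand, with the run in capitals.
RPS6, chr9:19380217-19380276, minus strand: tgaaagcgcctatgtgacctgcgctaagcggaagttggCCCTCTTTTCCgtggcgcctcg
RPS16, chr19:39435930-39435989, minus strand: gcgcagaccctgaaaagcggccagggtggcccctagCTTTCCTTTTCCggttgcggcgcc
RPS12, chr6:132814529-132814588, plus strand: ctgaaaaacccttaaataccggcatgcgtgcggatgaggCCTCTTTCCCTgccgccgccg
RPL22, chr1:6199576-6199635, minus strand: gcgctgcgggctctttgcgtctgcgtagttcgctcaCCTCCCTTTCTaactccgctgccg
RPL36AL, chr14:49620607-49620666, minus strand: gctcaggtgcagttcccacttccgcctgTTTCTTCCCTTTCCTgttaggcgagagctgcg
RPL39, chrX:119791611-119791670, minus strand: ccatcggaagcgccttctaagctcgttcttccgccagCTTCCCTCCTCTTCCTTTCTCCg
RPS27, chr1:153990722-153990781, plus strand: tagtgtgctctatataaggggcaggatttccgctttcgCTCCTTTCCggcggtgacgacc
RPS27L, chr15:63157458-63157517, minus strand: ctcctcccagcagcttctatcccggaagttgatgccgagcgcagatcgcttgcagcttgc
RPL26L1, chr5:172958689-172958748, plus strand: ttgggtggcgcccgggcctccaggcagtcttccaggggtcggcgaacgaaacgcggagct
RPL4, chr15:66504836-66504895, minus strand: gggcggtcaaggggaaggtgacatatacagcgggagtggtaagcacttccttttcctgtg
The run was present in 41 of the 52 core members found and in 2 of the 5 paralogs found. A match of these letters describes the window only.

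The values are deposited log2 signals, split by array type over a first and a second table. In the first are S1 samples 1 and 2, all T4 samples, and the agents LY294002, GM6001 and the MMP and ADAM inhibitor, while S1 sample 3 and the other 6 agents are in the second. S1 sample 3 is therefore the only S1 sample of its table, and its value is given apart for the members the results turn on. That value is as deposited, with no difference between the tables taken out. Where it lies against the T4 range therefore includes any difference of array type. Of 9 epithelial markers, 7 were tested. KRT5 was between 13.1 and 14.1 in all 15 samples, and KRT14, its basal keratin partner, had S1, T4 and T4R means of 13.9, 13.7 and 14.2. Epithelial markers were not all steady: KRT18, a luminal keratin, was called higher in T4 than in S1 (0.98 ± 0.21) and lower in T4R than in T4 (-1.07 ± 0.19), EPCAM was called higher in T4R than in T4 (0.93 ± 0.24), and KRT8 was called higher in T4R than in S1 (0.71 ± 0.22). Of 15 markers of fibroblasts, endothelium, leukocytes and adipocytes, 6 passed the filter on low values and none was called between T4 and S1 or between T4R and T4. In T4R against S1, 2 of the 6 were called higher, the collagens COL1A1 (1.46 ± 0.43) and COL3A1 (0.21 ± 0.07), against 11.8% of all genes. The part of these markers in the results was not tested. PTPRC, PECAM1 and CDH5, which define leukocytes and endothelium, had group means between 6.67 and 6.95, and every sample's value lay below that sample's median over all probe sets. In bulk RNA, fewer cells of a type and less RNA per cell cannot be told apart.

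All 69 members passed the filter that left out the dimmest 25% of genes, so 9111 genes including every member were tested. Apart from RPS4Y1, the chosen probe sets of the members had mean log2 signals from 7.05 to 14.1, and 60 of the 69 had means above 12. Levels of different probe sets are not compared here, since each binds with its own strength. For RPL37A the single-gene probe set used had a mean of 7.69, near the sample medians over all probe sets, and its second probe set had the opposite sign in T4R against T4 (-0.19 against 0.26). For RPL27A and RPS28 the choice of probe set matters: the probe sets named for these genes alone had means of 7.71 and 8.07, whereas probe sets that also carry another name had means of 13.4 and 13.2. Both genes enter the counts below with the dimmer probe set. RPL22 has 5 probe sets, which differ in T4 minus S1. The one used had 0.16, and others with similar means had 0.15 and 0.10. The remaining ones, with means of 10.9 and 11.3, had -0.34 and -0.93. All values of RPL22 below are those of the probe set used.

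Across the 15 samples the ribosomal protein genes moved largely as a block. Over the 62 core members, the median correlation between pairs was 0.69, and 95.2% of 1891 pairs were above 0. The pairs share libraries and array signal, and the correlations are given as a description. After the group and table means were removed the median was 0.79. RPS13, a small-subunit protein, followed the mean of the core most closely, with r = 0.98 over the 15 samples. The genes with the lowest r were of both kinds. Core RPL27A had -0.17, RPL37A 0.05 and RPS28 0.22, all 3 with dim probe sets. The paralogs RPL39L, a copy of RPL39 known from testis and tumours, and RPL26L1, a copy of RPL26, had -0.15 and -0.02. RPL3L, a paralog with a dim probe set (mean 7.05), had -0.01. The paralogs RPL10L and RPS27L had r = 0.77 and r = 0.65, although the RPL10L probe set was also dim (mean 7.48).

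**Figure D1:**
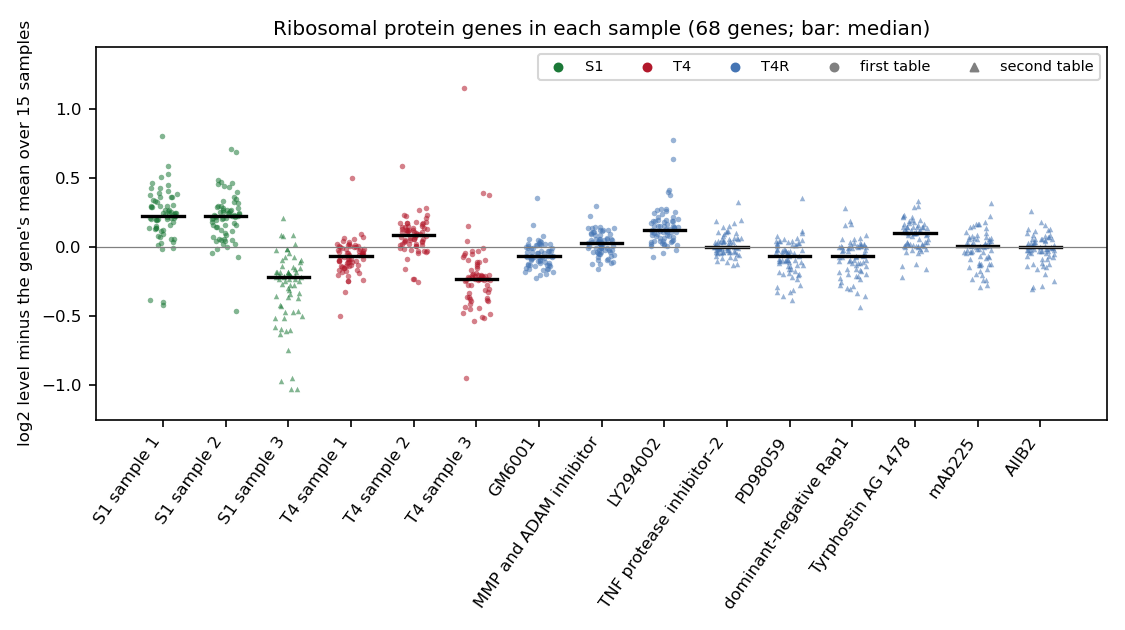
Each point is the log2 level of 1 member (all but RPS4Y1 are drawn) minus its own mean over the 15 samples (vertical axis, log2 units), by sample, in green for S1, red for T4 and blue for T4R, with circles for the first table and triangles for the second; the black bar is the median. Most points of S1 samples 1 and 2 lie above 0, most of S1 sample 3 and T4 sample 3 lie below 0, and the agents lie around 0.

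The sample medians show where the block stood. Measured as the deviation of each member from its own mean over all samples, the median was 0.23 and 0.22 in S1 samples 1 and 2 and -0.22 in S1 sample 3. It was -0.07, 0.09 and -0.23 in T4 samples 1, 2 and 3. Among the agents it ran from -0.07 with GM6001 to 0.12 with LY294002. In S1 samples 1 and 2, 64 of the 69 members were above their own mean, in S1 sample 3 only 5 were, and in T4 sample 3 only 6. The block was thus high in 2 S1 samples, low in S1 sample 3 and T4 sample 3, and in between in the remaining T4 and T4R samples. The 25 genes outside the family with mean signals above 13 had median deviations of 0.11, 0.03 and -0.07 in the S1 samples. In T4 samples 1, 2 and 3 they had 0.02, 0.18 and 0.01, and among the agents from -0.10 with GM6001 to 0.05 with AIIB2.

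Repeat samples differed unequally. S1 samples 1 and 2 differed by a median of 0.05 over the members in absolute value, against 0.10 over all genes. S1 sample 1 exceeded S1 sample 3, which lies in the other table, in 66 of 69 members, by a median of 0.49. The fitted difference of the second table from the first had a median of -0.17 over the members. T4 sample 2 exceeded T4 sample 3 in 63 members, by a median of 0.32. For the median over members, the gaps to S1 sample 3 and T4 sample 3 exceed the fitted T4 against S1 difference given next.

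Of the 62 core ribosomal protein genes, 11 fell in T4 against S1 and none rose, and the largest differences of the family were those of the paralogs RPL39L, which rose, and RPS27L, which fell. The median difference over the 69 members was -0.14 on the log2 scale, with 58 below 0, while the median over all 9111 genes was 0.01. In the fit with limma across all genes, 12 members fell and 1 rose at an adjusted p under 0.05. Over all genes tested 12.3% were called lower and 14.6% higher, so the share of members lower (17.4%) is near that background, while only 1 member was higher. The core genes that fell were 4 of 23 of the small subunit and 7 of 39 of the large subunit.

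Of the small-subunit genes, RPS6, the S6 kinase substrate, had 13.93, 13.97 and 13.38 in S1 samples 1, 2 and 3, and 13.40, 13.60 and 12.98 in T4 samples 1, 2 and 3. S1 samples 1 and 2 were above every T4 sample, and S1 sample 3 lay among them. The difference was -0.50 ± 0.15 (SE; adjusted p = 0.0229). RPS16, a protein of the small subunit's head, had 13.76, 13.74 and 13.27 in S1 and 13.24, 13.34 and 12.76 in T4. In the deposited values only S1 sample 3 lay within the T4 range. The fitted difference of the second table from the first was -0.15 for RPS16, and with it taken out S1 sample 3 would lie above that range. The difference between T4 and S1, fitted with the table, was -0.53 ± 0.15 (adjusted p = 0.0159). RPS9 fell by 0.49 (adjusted p = 0.024) and RPS19, the gene most often mutated in Diamond-Blackfan anaemia, by 0.47 (adjusted p = 0.0211). S1 sample 3 lay within the T4 range for RPS9 (12.76) and just above it for RPS19 (13.62).

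Among large-subunit genes RPL8 had the largest change. This protein lies near the peptidyl transferase centre. Its signal was 14.03, 13.92 and 13.44 in the S1 samples and 13.15, 13.36 and 12.90 in the T4 samples, with no overlap between the groups, S1 sample 3 included. The difference was -0.76 ± 0.13 (adjusted p = 0.000862). RPL28 fell by 0.49 (adjusted p = 0.0449), RPL18 by 0.46 (adjusted p = 0.0312), RPL30 by 0.40 (adjusted p = 0.0168), RPL9 by 0.40 (adjusted p = 0.0158) and RPL37 by 0.31 (adjusted p = 0.0472). In the deposited values S1 sample 3 lay within the T4 range for RPL28 (12.98), RPL18 (12.76), RPL30 (13.43) and RPL37 (13.27), and just above it for RPL9 (13.35). The fitted difference of the second table from the first was -0.19 for RPL18 and -0.11 for RPL30. With it taken out S1 sample 3 would lie above the T4 range for these genes, for RPL18 only just. RPL13A, which also silences inflammatory mRNAs when released from the ribosome and serves as a reference gene in many assays, had 14.04, 13.97 and 13.35 in S1 and 13.49, 13.70 and 13.16 in T4. It fell by 0.43 (adjusted p = 0.0345), with S1 sample 3 inside the range of T4.

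Several well-known members did not pass. RPLP1 and RPLP2, the acidic stalk proteins that recruit elongation factors, had differences of -0.13 ± 0.13 and -0.24 ± 0.11. RPL5 and RPL11, the MDM2-binding pair, had -0.16 ± 0.09 and -0.17 ± 0.14. RPS18 and RPL32, both used as reference genes, had -0.12 ± 0.14 and -0.12 ± 0.15, and RPL41, the smallest ribosomal protein, had -0.09 ± 0.10. Their adjusted p-values ran from 0.114 for RPLP2 to 0.625 for RPL32, so differences of these sizes were not separated from the spread between samples.

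**Figure D2:**
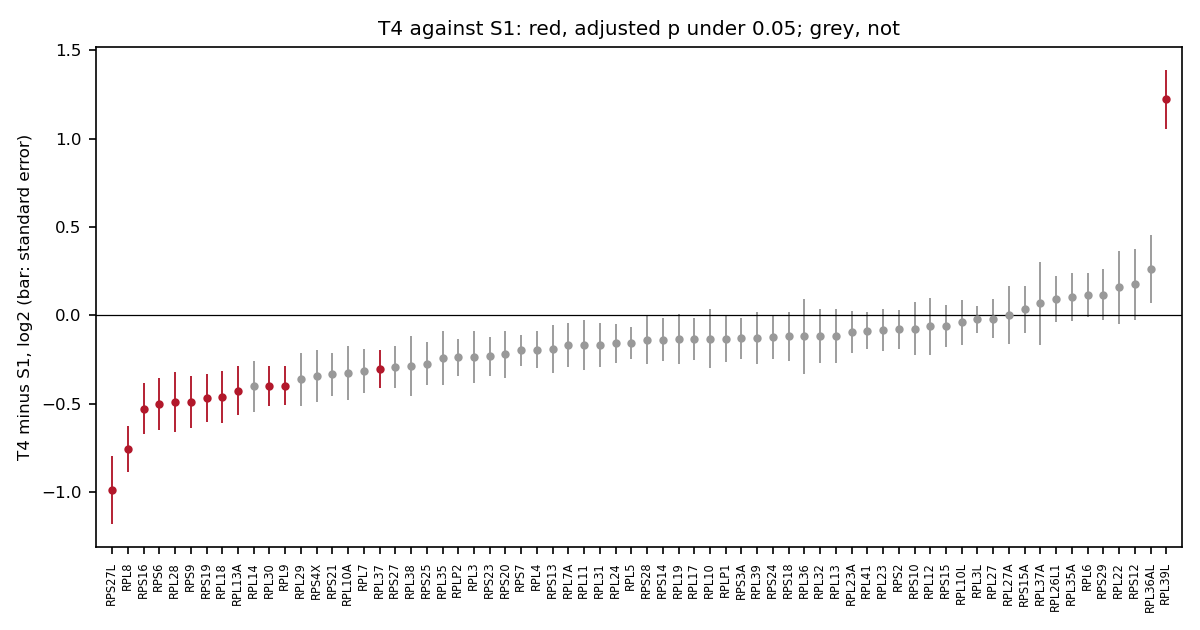
Fitted T4 minus S1 difference (vertical axis, log2 units; bars are the standard error) for the members other than RPS4Y1, along the horizontal axis in order of size, red where the adjusted p is under 0.05 and grey otherwise. RPS27L at -0.99 and RPL8 at -0.76 stand lowest and RPL39L at 1.22 stands apart at the top.

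The paralogs are genes for near copies of a ribosomal protein, made beside or in place of it. RPL39L had 8.27, 8.23 and 7.74 in S1 samples 1, 2 and 3 and 9.20, 9.28 and 9.84 in the T4 samples. Every T4 sample was above every S1 sample. The difference was 1.22 ± 0.17, a 2.33-fold rise (adjusted p = 0.000175), while its parent RPL39 had -0.13 ± 0.15 (adjusted p = 0.571). RPS27L, a copy of RPS27 that p53 induces, had 12.15, 12.28 and 11.58 in S1 and 11.42, 11.33 and 10.62 in T4. Its groups did not overlap either, and it fell by 0.99 (SE 0.19, adjusted p = 0.00214), while RPS27 had -0.29 ± 0.12 (adjusted p = 0.0803). Differences between paralog and parent were not tested themselves. RPL36AL, RPL26L1, RPL10L and RPL3L had differences of 0.26 ± 0.19, 0.09 ± 0.13, -0.04 ± 0.13 and -0.02 ± 0.08 and did not pass.

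**Figure D3:**
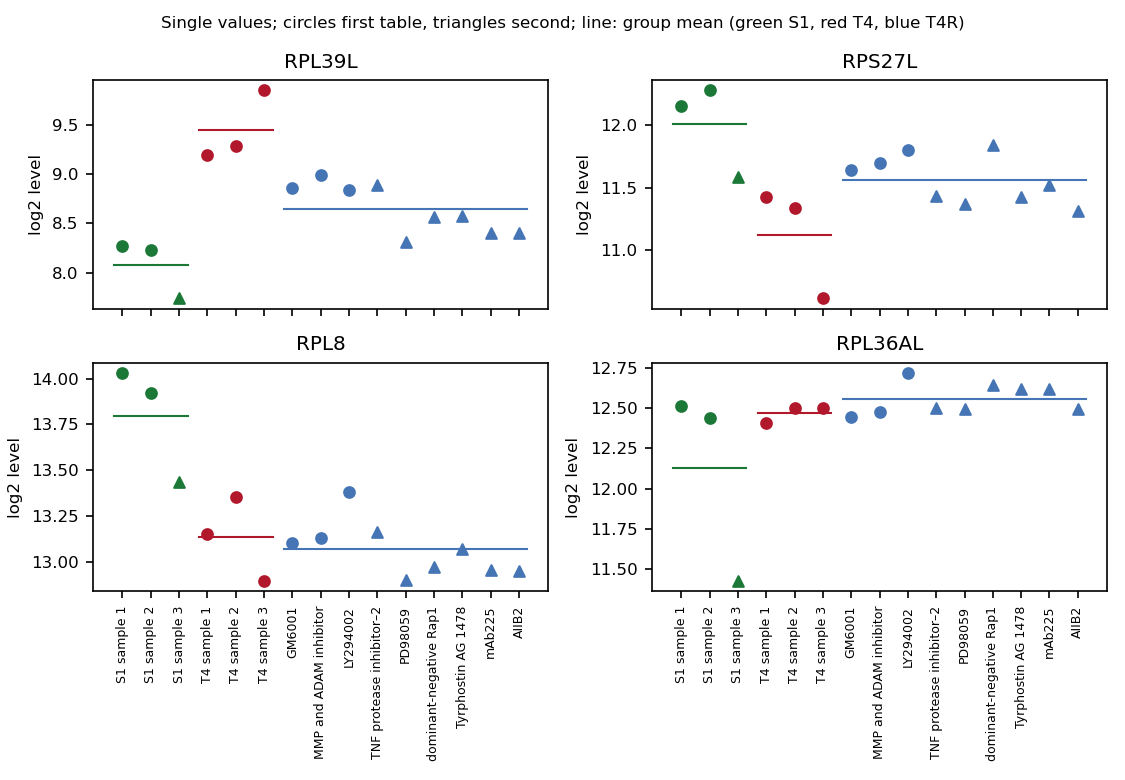
Deposited log2 level (vertical axis, a scale of its own for each gene) of RPL39L, RPS27L, RPL8 and RPL36AL in each of the 15 samples, green for S1, red for T4 and blue for T4R, with circles for the first table, triangles for the second and a line at each group mean. RPL39L is lower in every S1 sample than in any T4 sample, RPS27L and RPL8 are higher in every S1 sample, and RPL36AL is at 11.42 in S1 sample 3 and at 12.41 or more in all others.

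How many members were called lower in T4 depended on the samples used. T4 was below all S1 samples in 7 of 69 members, against 17.5% of all genes, and above all of them in 1, against 19.7%. Set against S1 samples 1 and 2 alone, T4 was lower without overlap in 54 of 69 members (78.3%), against 27.9% of all genes, and higher in 1, against 29.8%. Without S1 sample 3 the limma fit called 31 members lower and 1 higher, with a background of 13.9% and 15.7% of all genes, and all 13 genes called with it were among those called. Without S1 sample 1, S1 sample 2 or T4 sample 3, only RPL8 and RPS27L were called lower, against 8.98%, 8.33% and 10.1% of all genes. Without T4 sample 1, 8 members were called lower, against 10.5% of all genes, and without T4 sample 2, 17 were, against 11%. With S1 sample 3 and T4 sample 3 both left out, 16 members were called lower and 1 higher, against 11.9% and 14.4% of all genes. All 13 genes called with every sample were among these. RPL8, RPS27L and RPL39L were called in the same direction in all 32 settings run for this comparison.

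**Figure D4:**
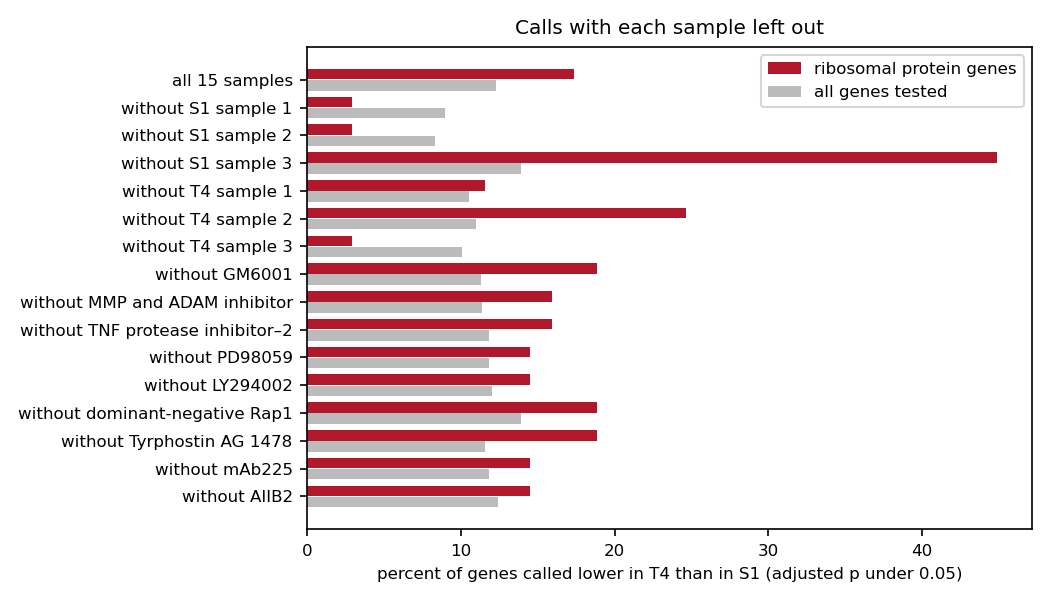
Percent of genes called lower in T4 than in S1 (horizontal axis, limma, adjusted p under 0.05) with all 15 samples and with each left out in turn, red bars for the 69 ribosomal protein genes and grey bars for all genes tested. The red bar is longest without S1 sample 3, at 44.9%, and shorter than the grey one without S1 sample 1, S1 sample 2 or T4 sample 3.

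The reverted samples were compared with T4 to see what the agents, taken as a group of 9, changed. All 62 core genes had differences above 0 in T4R against T4, between 0.02 and 0.43, and none passed the test. The common sign rests on the table term: in the deposited values the T4R mean was above the T4 mean for 49 of the 62 and below it for 13, and in the fit without the term the median over members was 0.072. Over all 69 members the median was 0.20 with 67 above 0, and over all genes it was within 0.01 of 0. The calls were 1 higher, RPS27L, and 1 lower, RPL39L, against 6.46% and 8.44% of all genes. Both have the opposite sign in T4 against S1, a comparison that shares the T4 samples. Without S1 sample 3 both calls were still made, with a background of 6.41% and 8.48%, and the median was 0.10. In that fit the table term rests on the T4R samples alone, so each difference is that of the first-table agents from T4. The second-table agents then add only to the estimate of spread. In the first table alone neither gene was called, against 6.93% and 8.39% of all genes. The median was also 0.10 without T4 sample 3, and 0.0062 with T4 sample 3 and S1 sample 3 both left out. Members called higher numbered 4 without GM6001 and 2 without T4 sample 2, against 4.43% and 5.48% of all genes.

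RPS27L had a lowest, median and highest signal of 11.32, 11.52 and 11.84 over the 9 agents, against 10.62 to 11.42 in T4. PD98059 and AIIB2, at 11.37 and 11.32, lay below the highest T4 sample, and the groups overlapped in the deposited values. Both agents are in the second table, whose fitted difference from the first was -0.33 for RPS27L. With it taken out they would lie above the T4 range. The difference was 0.66 ± 0.18 (adjusted p = 0.0260). RPL39L had 8.31, 8.57 and 8.99 over the agents, below every T4 sample (9.20 to 9.84). In the deposited values it was the 1 member with all agents below T4, against 8.41% of all genes. The fitted difference of the second table from the first was -0.41 for RPL39L (limma, adjusted p = 0.0367). With it taken out TNF protease inhibitor–2 would lie within the T4 range. RPL39L fell by 0.52 (SE 0.16, adjusted p = 0.0388). Both calls were lost without T4 sample 3, where the differences were 0.40 and -0.32, and without LY294002, where they were 0.65 and -0.49. That of RPL39L was also lost without S1 sample 1 (-0.53), S1 sample 2 (-0.52), GM6001 (-0.50), the MMP and ADAM inhibitor (-0.55), Tyrphostin AG 1478 (-0.52) or mAb225 (-0.52).

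RPL5 was the 1 member with all agents above T4 in the deposited values, against 6.76% of all genes. It had 13.03, 13.18 and 13.05 in T4 and 13.19, 13.32 and 13.45 as lowest, median and highest in T4R, with a difference of 0.24 ± 0.08 (adjusted p = 0.0703). RPL11 differed by 0.32 ± 0.13 (adjusted p = 0.124) and RPS6 by 0.25 ± 0.14 (adjusted p = 0.252). RPLP1 and RPLP2 differed by 0.22 ± 0.12 and 0.23 ± 0.10. RPL8 had 12.90, 13.07 and 13.38 as lowest, median and highest in T4R. Its T4R mean of deposited values was below its T4 mean (-0.07), and with the table term fitted the difference was 0.13 ± 0.12 (adjusted p = 0.544).

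Agents are single samples and are described without a test. Agents of the second table were set against the T4 mean after the fitted table term was taken out, because T4 lies only in the first table. Within the first table the median over members was 0.01 with GM6001, 0.09 with the MMP and ADAM inhibitor and 0.22 with LY294002, the PI3K inhibitor, which had 66 of 69 members above the T4 mean. In the second table it was 0.26 with TNF protease inhibitor–2, 0.15 with PD98059, 0.15 with dominant-negative Rap1, 0.34 with Tyrphostin AG 1478, 0.22 with mAb225 and 0.25 with AIIB2. Without the table term taken out the medians were 0.08 with TNF protease inhibitor–2, 0.15 with the tyrphostin, 0.08 with mAb225 and 0.06 with AIIB2, and within 0.01 of 0 with PD98059 and dominant-negative Rap1. The order of agents changes with it: LY294002, at 0.22, is then above the tyrphostin. The term itself had a median of -0.17 over the members, with 7 members called lower in the second table and none higher, against 8.75% and 9.19% of all genes.

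Members above all 3 T4 samples numbered 3 with GM6001, 14 with the MMP and ADAM inhibitor and 44 with LY294002, all in the T4 table. For the second table the count depends on the table term: with Tyrphostin AG 1478 it was 62 after the term was taken out and 31 in the deposited values. With TNF protease inhibitor–2 it was 52 and 17, and with PD98059 30 and 12. With dominant-negative Rap1 it was 30 and 12, with mAb225 48 and 19, and with AIIB2 50 and 16. Over all genes, with the term taken out, the share above all T4 samples lay between 28.5% and 33.8% for the 9 agents. The share below all of them lay between 30.2% and 37.7%. Members below all T4 samples numbered 1 to 6 with the term taken out and 1 to 10 in the deposited values. For the second table the share over all genes was not computed in the deposited values, so those counts have no background to be read beside.

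RPL39L was the lowest member against the T4 mean with all 9 agents, with or without the table term. With the term taken out its difference ran from -0.14 with TNF protease inhibitor–2 to -0.72 with PD98059, and in the deposited values it was -0.55 and -1.13 with these agents. RPS27L was the highest with 7 of the 9 agents after the term was taken out and with 3 in the deposited values. With dominant-negative Rap1 it was 1.05 above the T4 mean with the term taken out and 0.72 without.

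Against S1, the reverted samples had a median member difference of 0.00, with 35 members above 0 and 34 below. RPL39L and RPL36AL were higher and RPL8 lower, beside a background of 11.8% of genes higher and 11.4% lower. RPL8 was lower by -0.63 ± 0.11 (adjusted p = 0.000944), and its T4R range of 12.90 to 13.38 lay below all S1 samples, as 7.46% of all genes did. RPL39L was 0.70 ± 0.14 above S1 (adjusted p = 0.00273), with its lowest agent at 8.31 and the highest S1 sample at 8.27, and 8.13% of all genes likewise had every agent above S1. RPS27L did not pass, with -0.33 ± 0.16 (adjusted p = 0.159).

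RPL36AL, a copy of RPL36A, was called only with S1 sample 3 in the fit. It had 12.51 and 12.44 in S1 samples 1 and 2, 11.42 in S1 sample 3, 12.41 to 12.50 in T4, and 12.45, 12.50 and 12.72 as lowest, median and highest in T4R. The fitted difference was 0.52 ± 0.16 (adjusted p = 0.0306), and without S1 sample 3 it was 0.07 (adjusted p = 0.677). Without LY294002 it was 0.52 and just missed the threshold (adjusted p = 0.0504). Leaving out S1 sample 3 moved the median member difference between T4R and S1 to -0.22. The table term then rests on the T4R samples alone, so the difference is that of the first-table agents from S1 samples 1 and 2. This fit called 8 members lower, RPL8, RPS19, RPS16, RPS6, RPL13A, RPL7, RPL23A and RPS23, against a background of 9.41%, and RPL39L alone higher, against 8.77%. In the first table alone 1 member was lower and 1 higher, against 10.4% and 9.55% of all genes. Without T4 sample 3, 4 members were called lower, against 13% of all genes.

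S1 sample 3 was set against S1 samples 1 and 2 through an interaction, which asks whether T4R minus S1 differs between the tables. S1 has 1 sample in the second table, so its spread is assumed to be that of the other groups, and the T4R samples of the tables received different agents, so the interaction is not a measure of S1 sample 3 alone. The interaction was above 0 in 66 of 69 members, with a median of 0.45. It was called above 0 in 10 members and below 0 in none, against 1.9% and 2.22% of all genes. RPL22, RPL36AL and RPS12 had the largest values, at 1.10 ± 0.18 (adjusted p = 0.00763), 1.07 ± 0.14 (adjusted p = 0.00174) and 1.05 ± 0.18 (adjusted p = 0.00817). RPS12 had 13.39 and 13.45 in S1 samples 1 and 2 but 12.33 in S1 sample 3, below T4 (13.10 to 13.52) and T4R (13.21 to 13.48). RPL22, which also regulates lymphocyte development, had 12.99 and 13.01 in S1 samples 1 and 2, 11.83 in S1 sample 3 and 12.61 or more in all others. The other 7 were RPL12, RPS29, RPS10, RPS15A, RPL19, RPS18 and RPL23A. With quantile normalization inside each table, 3 members were called above 0, against 1.88% of all genes, and the median was 0.079. Of the 6 markers of other cell types tested, 1 was called in the same interaction: COL1A1, a fibrillar collagen, had 8.32 and 8.62 in S1 samples 1 and 2 and 7.20 in S1 sample 3. DCN, a fibroblast marker, went the other way, with 7.28 and 7.21 in S1 samples 1 and 2 and 8.70 in S1 sample 3. The mean log2 signal over the 13 markers of other cell types with values was 7.01, 7.04 and 7.03 in the 3 S1 samples. Both opposite steps enter that mean. It was 7.05 to 7.13 in T4 and 7.07 to 7.29 in T4R, and the part of these markers in the result was not tested.

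Genes that share the members' regulation or serve ribosome production were taken from lists, whose counts are read beside the same background. Over all genes tested, 12.3% were lower and 14.6% higher in T4 against S1, and 8.44% lower and 6.46% higher in T4R against T4. FAU, which encodes RPS30 fused to a ubiquitin-like protein, fell in T4 by 0.34 (SE 0.11, adjusted p = 0.0333). Of 18 elongation factors and other TOP mRNAs tested, 3 fell in T4 against S1 (16.7%, near the share over all genes) and none rose, with a median of -0.37. Those that fell were EEF1D, a subunit of the exchange factor for EEF1A, by 1.43 (adjusted p = 0.00031), EIF3E, a subunit of initiation factor eIF3, by 0.98 (adjusted p = 0.00891), and BTF3 by 0.45 (adjusted p = 0.0304). S1 sample 3 lay within the T4 range for EIF3E (12.06) and BTF3 (12.85) and above it for EEF1D (12.39). EEF1A1, which delivers aminoacyl-tRNA, had 0.01 ± 0.12, EEF2, the translocase, -0.21 ± 0.16, and TPT1 -0.15 ± 0.14. In T4R against T4 none of the 18 was called, with a median of 0.23.

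Ribosome biogenesis factors process rRNA and assemble the subunits. Of 44 biogenesis factors tested, 10 rose (22.7%, against 14.6% of all genes) and 2 fell (4.55%, against 12.3%) in T4, with a median of 0.21. NIP7, an assembly factor of the large subunit, rose by 0.86 (adjusted p = 0.00131) and MRTO4, a stalk assembly factor, by 0.78 (adjusted p = 0.00200), while FBL, the rRNA methyltransferase fibrillarin, fell by 0.45 (adjusted p = 0.0381). In T4R against T4 35 of the 44 were below 0, with a median of -0.24, and 1, IMP4, was called lower (-0.48, adjusted p = 0.0188), against 8.44% of all genes. Among 21 initiation factors 4 rose (19.0%) and 2 fell (9.52%) in T4, near the shares over all genes. EIF4G1, the scaffold of the cap-binding complex, was at 1.23 ± 0.26 (adjusted p = 0.00309) and EIF3K at -1.18 ± 0.13 (adjusted p = 3.78e-05). Among 11 genes of RNA polymerase I 1 rose and 1 fell (9.09% each). For EIF4G1, S1 sample 3 at 9.31 was above T4 samples 1 and 2, at 9.02 and 9.20.

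Of 17 regulators of ribosomal protein mRNAs, 4 rose (23.5%, against 14.6% of all genes) and 1 fell (5.88%, against 12.3%) in T4. TSC2, a brake on mTOR, had 11.37, 11.05 and 8.83 in S1 samples 1, 2 and 3, 8.12 to 8.44 in T4, and 8.80 to 10.09 with the agents. It fell by 2.36 in T4 (adjusted p = 0.00171) and was 1.64 higher in T4R than in T4 (adjusted p = 0.0180), and S1 sample 3 lay within the range of the agents. EIF4EBP1, the translation repressor that mTOR inactivates, rose by 0.75 in T4 (adjusted p = 0.00945). RHEB, the activator of mTOR, was 0.49 higher in T4R than in T4 (adjusted p = 0.0156). MYC, which drives transcription of ribosome genes, rose by 0.95 in T4 (adjusted p = 0.0446), with 12.02, 11.11 and 11.73 in S1 and 12.90, 12.96 and 11.75 in T4, so that T4 sample 3 lay within the S1 range. It had -0.74 ± 0.30 in T4R against T4 (adjusted p = 0.123). In T4R against T4, 4 of the 17 rose (23.5%) and none fell, against 6.46% and 8.44% of all genes.

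Promoter runs and the T4 difference were set side by side as a description. The median T4 minus S1 difference was -0.17 in the 43 members with a run and -0.09 in the 14 without one. Which members count as having a run depends on the annotated start and on the limit of 3 bases from it. Of the 12 members lower in T4, 9 had a promoter sequence and 7 of these had a run. The probe set with the next highest mean gave the same sign of T4 minus S1 in 30 of 35 members that had one. Further probe sets of a gene are not in this count.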

How the data were processed

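The deposited values are the authors' log2 signals in 2 tables, one per array type; the sources used here do not give their background correction, summarisation or normalization, and precision is limited by having 15 arrays. Values were used as deposited. The 22215 probe sets were named from the platform annotation, with current symbols looked up by Entrez number in the RefSeq gene table. The number was found there for 19689 probe sets, whether or not the symbol changed. Of all probe sets, 19707 had 1 gene, 614 several, 188 differing names and 1706 none. The probe set with the highest mean represented each gene, and the dimmest 25% of 12149 genes were left out.

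Differences were fitted with limma 3.58.1 in R 4.3.3 (lmFit, eBayes, 2-sided) over 15 samples with the groups S1, T4 and T4R and the table as a fixed block, with Benjamini-Hochberg adjustment over 9111 genes and a threshold of 0.05; the fit was tested on simulated data. The T4 contrast with second-table agents runs through the table term. Same-numbered S1 and T4 samples had correlated deviations (r = 0.28, 0.31 and 0.39), numbers taken from the labels, which do not state a pairing, but samples 1 and 2 correlated as well crosswise (0.31 and 0.29). Alternatives changed the probe set, the filter, the table term, the normalization, the spread and the samples. The rule for named genes was: fixed well-known members, paralogs, called members (at most 12 per direction), and those with extreme spread or level; from each list up to 4 called genes. The members and lists were chosen with earlier results of these data known.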

Additional observations from a re-analysis of the deposited data

Results flagged for a closer look

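The T4R minus S1 difference departed between the tables, by a test of the interaction of group and table in limma, for 10 members above 0 and none below, against 1.9% and 2.22% of all genes. S1 sample 3 is the only S1 sample in the second table, so its spread is assumed to be that of the other groups, and the agents differ between the tables. With quantile normalization inside each table, 3 members were called above 0, against 1.88% of all genes. The values, second table minus first, were 1.10 for RPL22, 1.07 for RPL36AL, 1.05 for RPS12, 0.73 for RPL12, 0.70 for RPS29, 0.69 for RPS10, 0.68 for RPS15A, 0.68 for RPL19, 0.67 for RPS18 and 0.56 for RPL23A. No agent sample stood apart from the other 8 by Dixon's criterion at 95% in 34 members or in the median over members.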

How the results depend on the processing

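Results were recomputed under 32 settings, 30 of them planned and 2 added after the data were seen. For T4 against S1, members lower numbered 7 without the table block, 22 in the first table alone and 32 with array weights. Over all genes the shares lower were 10.2%, 14.7% and 21.2%. With only S1 and T4 samples 7 members were lower and at 1.5-fold 2, against 10.2% and 7.32% of all genes. The median difference of the members was -0.28 in the first table alone and with only S1 and T4 samples. The design makes these medians equal, since with only S1 and T4 samples the table term takes up S1 sample 3 in full. Both then set T4 against S1 samples 1 and 2. For T4R against T4, members higher were 2 with the probe set of largest interquartile range, with the mean of probe sets and with the table as a random block, 0 in the first table alone, 5 and 10 with quantile normalization within and across tables, 3 with array weights and 0 with S1 sample 3 and T4 sample 3 left out; members lower were 0 in the first table alone, with quantile normalization within tables, at 1.5-fold and with both samples left out; the median was 0.072 without the block, 0.10 in the first table alone and with quantile normalization across tables, 0.020 with weights and 0.0062 with both samples left out. For T4R against S1, members lower were 2 with the interquartile-range probe set, the mean of probe sets and quantile normalization across tables, 3 with it within tables, 34 with weights and 14 with both left out; members higher were 1 without the block, in the first table alone, at 1.5-fold and with both left out, and 10 and 6 with quantile normalization within and across tables; the median was -0.22 in the first table alone, -0.21 with weights and -0.22 with both left out. Over all genes, in the settings counted above for T4R against T4, the share higher ran from 5.22% to 8.28%, and was 16.3% with array weights. The share lower ran from 4.96% to 8.39%. In those counted for T4R against S1 the share lower ran from 10.1% to 11.6%, and was 20.3% with array weights. The share higher ran from 4.93% to 12.1%. The difference of RPL32 between T4R and S1 reversed with array weights, from 0.03 to -0.22 (adjusted p = 0.0498). With quantile normalization within tables the interaction called 3 members above 0, against 1.88% of all genes, with a median of 0.079. The table term then called 28 members lower (40.6%), against 10.3% of all genes. Leaving out 1 sample, members called in T4 against S1 ran from 1 to 1 higher and 2 to 31 lower (median -0.28 to -0.088), in T4R against T4 from 0 to 4 and 0 to 1 (0.10 to 0.27), and in T4R against S1 from 1 to 3 and 1 to 8 (-0.22 to 0.046). Genes called over all 9111 with array weights were 4180, 3160 and 3854 in the 3 contrasts, against 2452, 1358 and 2116. With the replicate block, 15 members were lower and 1 higher in T4 (median -0.13), against 13.5% and 16.4% of all genes. Leaving the table out gave 13 and 1 (-0.12), against 12% and 15%. No call of a named member changed. The cause of these changes was not tested.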
